A study of Rattus norvegicus with 6 samples.

Results

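Megalin and cubilin are the endocytic receptors with which the proximal tubule of the kidney takes filtered proteins back from the primary urine. Described here are 7 genes of this uptake route and its brush border, namely Lrp2 (megalin), Cubn (cubilin), Amn (amnionless), Dab2, Clcn5, Lrpap1 and Cltrn (collectrin). The members were all probes other than controls that the array design names after one of these genes, which gave 7 of 35561 names and 8 of 41012 probes, 2 of them for Lrpap1 and 1 for each other gene. All 8 passed the filter on dim probes, which kept 30934 probes.

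The kidneys came from 3- and 7-day-old rats of strain Han:SPRD, in which the Cy mutation, a missense change in Anks6, causes polycystic kidney disease. Cy/+ rats carry 1 mutant allele and Cy/Cy rats 2, and +/+ rats carry none. Each of the 6 arrays held, in Cy5, pooled left-kidney RNA of 1 genotype at 1 age, and in Cy3 the pooled +/+ kidney RNA of that age, so that each genotype had 2 arrays, 1 per age. The size of the pools and their independence are not given. The p-values below therefore reflect no more than the variation among the arrays, and no dye was swapped. All arrays of 1 age lay on 1 slide, and age and slide cannot be told apart. On each array 65.0% to 70.0% of spots in Cy3 and 66.8% to 74.8% in Cy5 were well above background. Precision is limited by there being 2 arrays for each genotype.

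The labelled tissue was checked with markers. On the 4 mutant arrays all 8 proximal tubule markers and all 7 markers of other nephron segments were well above background in both channels. The arrays labelled +/+ went against their label. Set against +/+ kidney, their Cy5 pool had, over 5 liver markers, a median log2 ratio of 4.94 at the younger and 4.43 at the older age, and of -2.89 and -2.35 over the 8 proximal tubule markers, where Slc5a12 at both ages and Slc13a1 at the younger were not well above background in that pool. Markers of other tissues were raised there too, at 3 and 7 days: muscle (4.07 and 3.61), lung (5.02 and 3.91), exocrine pancreas (4.55 and 4.08) and intestine (2.10 and 2.44). The markers of other nephron segments were at -4.08 and -3.58. These arrays are called the arrays labelled +/+, and the main comparisons below do not use them. Among the mutant arrays the 3-day Cy/+ array stood apart, with a median log2 ratio of 3.61 over 4 exocrine pancreas markers (range 0.84 to 4.74). Their summed Cy5 level was 54252 there and 1652 to 1914 on the other 3 mutant arrays. On those 3 the defining markers Cpa1 and Prss1 were not well above background. The arrays labelled +/+ had sums of 181440 and 167800. The members' results in Cy/+ and the calls of list and marker genes are therefore also given without the 3-day Cy/+ array.

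As background, megalin is a very large receptor of the LDL receptor family that spans the apical membrane. Cubilin has no membrane span and depends on amnionless to reach the surface, and the receptors share ligands such as albumin, vitamin-binding proteins and small hormones. Dab2 links megalin to clathrin, the chloride/proton exchanger encoded by Clcn5 serves the acidification of endosomes in which ligands are released, and the chaperone encoded by Lrpap1 (RAP) keeps ligands off megalin during folding. Collectrin is a membrane protein of the same brush border that brings amino acid transporters to the surface and is no part of the receptor complex.

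Each member was measured through a 60-base probe, and the first 30 bases are shown for the probes on which the results turn, together with both Lrpap1 probes, since these went different ways. The design places the Lrp2 probe at chr3:51460180-51460239 on the minus strand, the Cubn probe at chr17:87557145-87557204 on the minus strand and the Cltrn probe, listed under the older name Tmem27, at chrX:51172540-51172599 on the minus strand (build rn3). One Lrpap1 probe lies at chr14:81307001-81307060 and the other at chr8:76108699-76108758, both on the plus strand of rn3. RefSeq's promoter table for GRCr8 has Lrpap1 on chromosome 14 only, and the longest run of bases that the 2 probes share is 4. Exon, intron or UTR positions of the probes were not determined here.
Lrp2: ttgttgctcgtattttgagtacccattgta
Cubn: gatagcgcccttctatgcttcatcaaatcg
Cltrn: tagacaacaatagaccactgaaatcataag
Lrpap1, chromosome 14: ttgaaattatataaatctgtcactggaaat
Lrpap1, chromosome 8: gacgagtggccaaggcatttctaggcttac
The other probes lie at chr6:136044700-136044759 (Amn, listed as a predicted gene), chr2:55664339-55664398 (Dab2) and chrX:27463273-27463332 (Clcn5), all on the plus strand of rn3.

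In Cy/+ kidney the receptors themselves and collectrin stood above the +/+ reference, while the adaptor, the exchanger and the receptor's partner did not pass the test. Lrp2 was 1.82-fold, Cltrn 1.71-fold and Cubn 1.42-fold above the reference. These were the 3 of 8 member probes that limma called at an adjusted p under 0.05, all of them higher, against a background of 7.85% of all probes called in either direction, 4.58% higher and 3.27% lower (n = 2 arrays). Age as a block gave 4 member calls and 4864 calls over all probes in place of 2427. In Cy/Cy kidney no member passed, and limma called 0% of all probes (15 probes, none of them a member, with age as a block). Values below are log2 ratios of a Cy5 pool over its Cy3 +/+ reference, normalized by loess within each array, unless they are named as levels, which are log2 signals of 1 channel scaled between arrays.

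For megalin the 3-day and 7-day log2 ratios were 0.97 and 0.76 in Cy/+, and 0.83 and 0.25 in Cy/Cy. All 4 mutant pools lay above their reference, the 7-day Cy/Cy pool by the least. The fitted mean in Cy/+ was 0.87 ± 0.14 (SE, n = 2, limma adjusted p = 0.0248), and in Cy/Cy 0.54 ± 0.14 (adjusted p = 0.485). The channel levels show how far the reference readings varied between arrays. Whether that came from the Cy3 RNA, the Cy5 pool beside it or the scaling was not tested. Its 3 hybridisations gave Lrp2 levels of 15.80, 14.87 and 14.86 at 3 days, the first on the array labelled +/+, and the mutant pools 15.84 (Cy/+) and 15.70 (Cy/Cy). At 7 days the reference gave 15.62, 15.04 and 15.18, again highest on the array labelled +/+, and the mutants 15.80 and 15.43. The mutant pools were thus above the reference hybridised beside them, but the reference level read on the arrays labelled +/+ reached into their range. At 3 days the order was Cy/+, Cy/Cy, reference (15.18 ± 0.54, SD of 3 hybridisations), and neighbours in it lay within that SD of each other. That SD includes the reading on the array labelled +/+. Over the 2 mutant arrays of that age the reference level was 14.87 with an SD of 0.005, and both mutant pools lay above it by more than that SD.

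Cubilin had log2 ratios of 0.30 and 0.71 in Cy/+ at 3 and 7 days, and of 0.20 and 0.05 in Cy/Cy. The 7-day Cy/+ pool was high and the other 3 lay closer to the reference. The fitted mean was 0.51 ± 0.11 in Cy/+ (SE, n = 2, limma adjusted p = 0.0435) and 0.12 ± 0.11 in Cy/Cy (adjusted p = 0.747). As levels, Cubn at 7 days was 13.16 in Cy/+, 12.43 in Cy/Cy and 12.12 to 12.45 over the 3 reference hybridisations. At that age Cy/+ lay above the whole range of the reference and Cy/Cy inside it. At 3 days the levels were 13.32, 13.02 and 12.80 to 13.01, so that Cy/Cy and the highest reference hybridisation were almost equal.

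Collectrin had log2 ratios of 0.51 and 1.03 in Cy/+ and of 0.47 and 0.59 in Cy/Cy. All 4 mutant pools were above the reference, the 7-day Cy/+ pool the highest. The fitted mean was 0.77 ± 0.12 in Cy/+ (SE, n = 2, limma adjusted p = 0.0248) and 0.53 ± 0.12 in Cy/Cy (adjusted p = 0.447). Cltrn levels at 3 days were 14.04 in Cy/+, 14.10 in Cy/Cy and 13.53 to 13.75 in the reference, and at 7 days 14.82, 14.41 and 13.79 to 13.95. Unlike those of Lrp2, the mutant levels of Cltrn did not overlap with any of the 3 reference hybridisations of the same age. At 3 days the mutant pools were the neighbours that lay within the reference's SD (0.11) of each other.

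**Figure D1:**
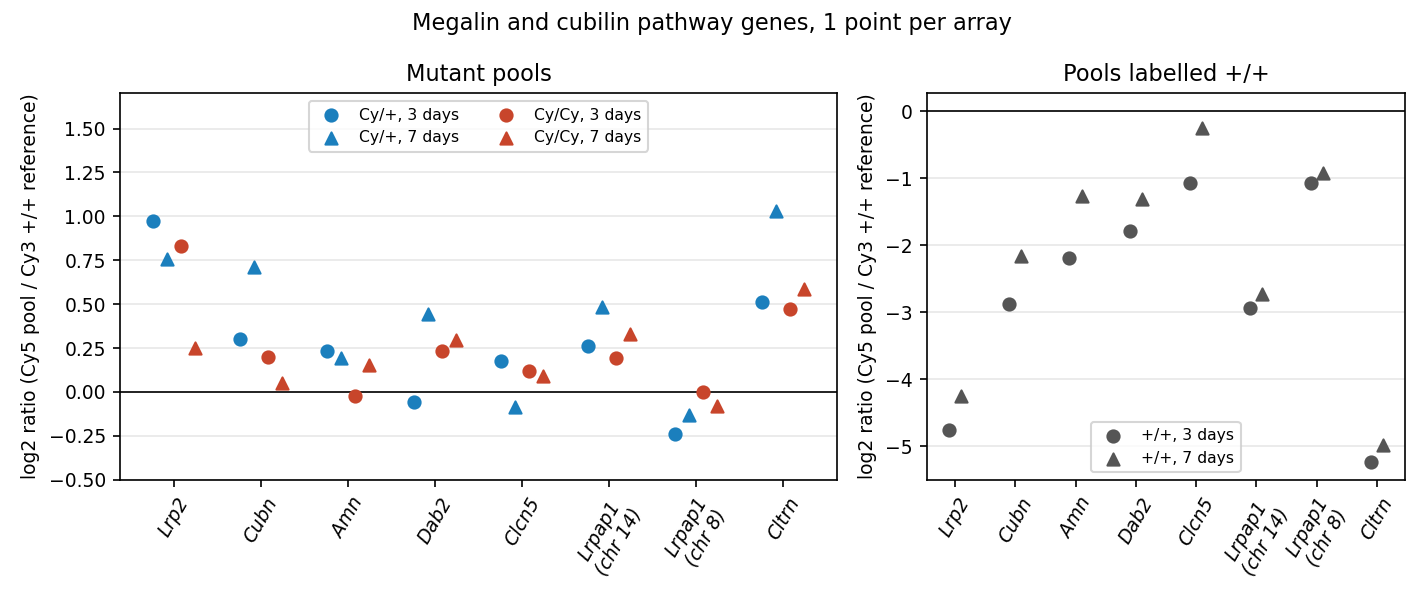
Log2 ratio of each member probe, Cy5 pool over Cy3 +/+ reference, on the 4 mutant arrays (left) and the 2 arrays labelled +/+ (right, another axis range), with circles for 3 and triangles for 7 days and 1 point per array. Lrp2 and Cltrn are above 0 on all 4 mutant arrays and between -5.24 and -4.25 on the arrays labelled +/+.

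The remaining members of the receptor route had smaller ratios. Amn, the membrane anchor of cubilin, had 0.23 and 0.19 in Cy/+ and -0.02 and 0.15 in Cy/Cy. The Cy/+ pools were both above the reference and the 3-day Cy/Cy pool was level with it, with a fitted 0.21 ± 0.08 in Cy/+ (SE, n = 2, limma adjusted p = 0.133) and 0.07 ± 0.08 in Cy/Cy (adjusted p = 0.813). Dab2, the clathrin adaptor of megalin, had -0.06 and 0.45 in Cy/+ and 0.23 and 0.29 in Cy/Cy. Only the 3-day Cy/+ pool was below its reference, and the fitted means were 0.19 ± 0.12 (adjusted p = 0.337) and 0.26 ± 0.12 (adjusted p = 0.598). Clcn5, the endosomal exchanger, had 0.18 and -0.08 in Cy/+ and 0.12 and 0.09 in Cy/Cy. Its fitted means of 0.05 ± 0.09 and 0.10 ± 0.09 had adjusted p-values of 0.769 and 0.735, with a 95% interval for Cy/+ of -0.16 to 0.25.

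The Lrpap1 probes, made for the chaperone of megalin, had fitted ratios of opposite sign, and the difference between them was not tested. The chromosome 14 probe had 0.26 and 0.48 in Cy/+ and 0.19 and 0.33 in Cy/Cy. All 4 pools were above the reference, and the fitted mean in Cy/+, 0.37 ± 0.09 (SE, n = 2), had a limma adjusted p = 0.0505, just outside the threshold. With age as a block over the 4 arrays that adjusted p was 0.0221. The chromosome 8 probe was dim, with raw Cy3 signals of 97.6 to 139 before background correction, and had -0.24 and -0.13 in Cy/+ and 0.00 and -0.08 in Cy/Cy (fitted -0.19 ± 0.07 in Cy/+, adjusted p = 0.159). Whether that probe reads Lrpap1 transcripts was not tested, and Lrpap1 below means the chromosome 14 probe.

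**Figure D2:**
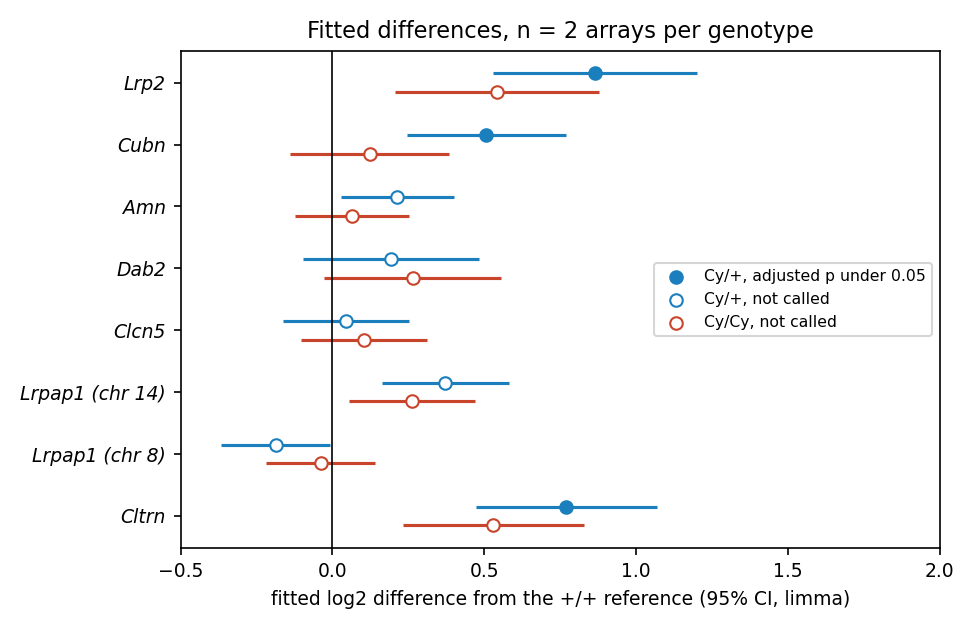
Fitted log2 difference of each member probe from the +/+ reference in Cy/+ (blue) and Cy/Cy (red), with 95% confidence intervals from limma and n = 2 arrays per genotype. Filled points, which are Lrp2, Cubn and Cltrn in Cy/+, have an adjusted p under 0.05.

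Read as a count, Cy5 was above Cy3 on all 4 mutant arrays for 4 of 8 member probes (Lrp2, Cubn, Lrpap1 and Cltrn), against 21.0% of all probes. The median fitted ratio over the 8 was 0.29 in Cy/+ and 0.19 in Cy/Cy, and 0.00 and 0.01 over all probes. In single arrays, Cy5 was at least 1.5-fold above Cy3 for Lrp2, Cubn and Cltrn on the 7-day Cy/+ array (1.33% of all probes), for Lrp2 on the 3-day Cy/+ array (3.20%) and the 3-day Cy/Cy array (0.414%), and for Cltrn on the 7-day Cy/Cy array (0.317%).

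The calls in Cy/+ rest on few arrays. Without the 3-day Cy/+ array, which carried the pancreas markers, Cubn stood at 0.71 (limma adjusted p = 0.0207) and Cltrn at 1.03 (adjusted p = 0.00546), while Lrp2 at 0.76 had an adjusted p = 0.0661. Without the 7-day Cy/+ array Lrp2 stood at 0.97 (adjusted p = 0.0147), Cltrn at 0.51 (adjusted p = 0.0272) and Cubn at 0.30 (adjusted p = 0.128), and the Cubn call was also lost without the 3-day (adjusted p = 0.0733) or the 7-day (adjusted p = 0.0734) Cy/Cy array, which share its spread. With log ratios as the scanner software gives them the values were close (Lrp2 0.79, Cltrn 0.75, Cubn 0.55) but limma called 0 of all probes, the smallest adjusted p being 0.121. Median centring in place of loess moved the median of all probes to 0.19 in Cy/+ and 0.17 in Cy/Cy and the share of calls that were higher in Cy/+ from 58.3% to 80.2%. Lrp2 stood at 1.71 and 1.23 there, and the size of its ratio depends on the dye correction. The shift was not the same for every probe. In Cy/Cy, Amn went from 0.07 to 0.67 and the dim chromosome 8 probe of Lrpap1 from -0.04 to -0.06.

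Whether the genotypes differ was asked by subtracting the Cy/+ from the Cy/Cy ratios. The Cubn difference was -0.38 ± 0.15 (95% interval of the difference -0.75 to -0.01, limma adjusted p = 0.816). The differences were -0.32 for Lrp2 (95% interval -0.80 to 0.15), -0.24 for Cltrn (-0.66 to 0.18) and -0.11 for Lrpap1 (-0.40 to 0.18). Limma called 0 probes here (0% of all), with 1888 at an unadjusted p under 0.05, Cubn among them, so a difference between Cy/+ and Cy/Cy was shown for no member. The Cubn difference was -0.59 without the 3-day and -0.18 ± 0.14 without the 7-day Cy/+ array, and its SE was 0.22 when all 6 arrays shared 1 estimate of the spread. That of Lrp2 was -0.61 without the 3-day and -0.03 without the 7-day Cy/Cy array. Over all probes 211 were called (41 higher and 170 lower) without the 7-day Cy/+ array, 1 without the 3-day one and 9 after median centring. In Cy/Cy against the reference 2675 probes had an unadjusted p under 0.05, Lrp2, Lrpap1 and Cltrn among them. The Cy/Cy intervals reached from 0.21 to 0.88 for Lrp2 and from 0.23 to 0.83 for Cltrn. In bulk kidney RNA, a change in the number of proximal tubule cells and a change in RNA per cell cannot be told apart.

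Proximal tubule markers are given beside these ratios for that reason. Over the 8 markers the median log2 ratio was -0.40 and 0.21 in Cy/+ at 3 and 7 days and 0.06 and 0.28 in Cy/Cy. In the Cy/+ fit 2 of 8 were higher (Aqp1 0.40 and Fbp1 0.48) and 0 lower, with a median of -0.12, and 4 of 7 markers of other segments were lower (Calb1 -1.65, Slc12a1 -0.71, Nphs1 -0.58 and Slc12a3 -0.45). Summed over the list, the proximal tubule markers had a Cy5 level of 223336 and 250169 in Cy/+ against Cy3 levels of 210441 and 189222. In Cy/Cy the Cy5 sums were 243537 and 275957 against Cy3 sums of 181023 and 173167. On the 3-day Cy/+ array the ratios of the 8 markers ranged from -0.90 to 0.34. Without that array the fit called Fbp1 and Slc13a1 of the 8 higher, at 0.65 and 0.71 (median 0.21), and 2 of the 7 other segment markers lower, Calb1 at -1.43 and Aqp2 at -0.66. The part of cell numbers in the members' ratios was not tested.

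The other genes of the pathway were taken as lists of 110 genes, of which 106 were measured. In Cy/+ 14 were higher and 1 lower, beside 4.58% of all probes called higher and 3.27% lower. With age as a block 22 were higher, where 2590 of 30905 probes were called higher. Of 17 further endocytic receptors 1 was higher and 1 lower (median 0.01): Vldlr, a smaller relative of megalin, at 0.59 ± 0.08 (SE, limma adjusted p = 0.0177), and Lrp1, the scavenger receptor of many cell types, at -0.44 ± 0.08 (adjusted p = 0.0341). Of 29 genes of the clathrin coat, its adaptors and the early endosome, 2 were higher (median 0.08), the assembly protein Picalm (0.59) and the adaptor subunit Ap2m1 (0.32). Of 23 genes of endosome acidification and the lysosome, 2 were higher (median 0.03), the proteases Ctsd (0.69) and Ctsb (0.49), and none of the proton pump subunits passed. Of 16 genes for ligands that are filtered, Tf (transferrin) alone was higher, at 0.98 ± 0.10 (adjusted p = 0.00997; median of the list 0.07). Without the 3-day Cy/+ array Vldlr (0.63, adjusted p = 0.0326) and Tf (0.84, adjusted p = 0.0162) were still called. Lrp1 (adjusted p = 0.0748), Picalm (0.101), Ap2m1 (0.194), Ctsd (0.152) and Ctsb (0.0539) were not, while Ctsh (0.70), another lysosomal protease, and Selenop (0.59), a plasma selenoprotein, were.

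The list of collectrin's partners and the brush border had the highest median of the 6 pathway lists in Cy/+. There all 14 of its measured genes had a fitted ratio above 0, and the median was 0.44. Of the 14, 8 were higher and 0 lower, beside 4.58% of all probes called higher and 3.27% lower. The amino acid transporters Slc6a18 (0.70 ± 0.10) and Slc7a9 (0.58 ± 0.10), the peptidases Mme (0.78 ± 0.13) and Dpp4 (0.49 ± 0.07), the transferase Ggt1 (0.40 ± 0.09), and the linker proteins Ezr (0.49 ± 0.08) and Nherf1 (0.39 ± 0.07) were among those that passed the test in limma. Slc6a20a (0.51), Anpep (0.40), Pdzk1 (0.28), Vil1 (0.28), Slc3a1 (0.23) and Slc1a1 (0.06) did not. Without the 3-day Cy/+ array 4 of the 14 were called, Slc6a18 (0.86), Slc7a9 (0.64), Mme (1.06) and Anpep (0.58), with a median of 0.51, and 6 without any 1 of the other 3 mutant arrays. In Cy/Cy the median was 0.28, with all 14 above 0 and 0 called. This list was drawn up with earlier results of these data known, and its median moved with the scaling. After median centring the median was 1.05 with 14 called, where 12357 of 30905 probes were called higher. With the software's log ratios the median was 0.40 with 0 called, and 0 of all probes were called.

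Of 7 regulators of the proximal tubule 0 passed in Cy/+ (median -0.01), the largest ratio being that of the nuclear receptor Pparg (0.35, limma adjusted p = 0.227). In Cy/Cy 0 of the 106 genes passed, with a median of 0.03, and the difference between the genotypes called 0 as well.

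**Figure D3:**
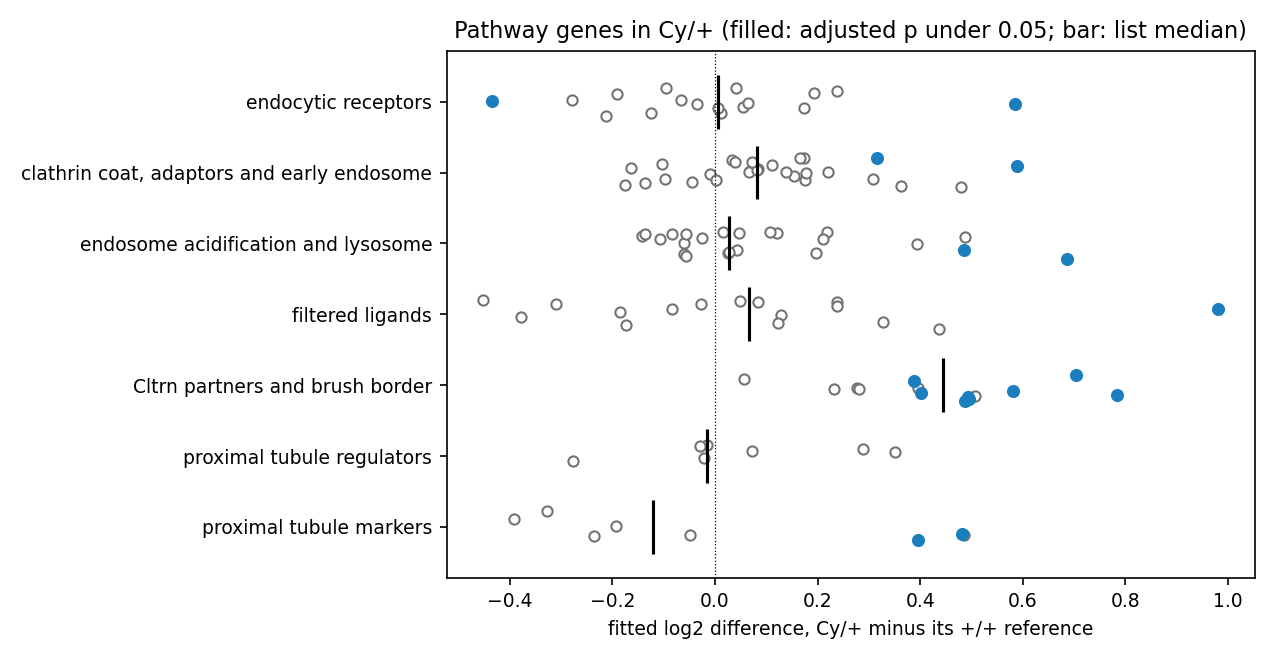
Fitted log2 difference between Cy/+ and its +/+ reference for each measured gene (points) of 6 pathway lists and of the proximal tubule markers, with filled points for an adjusted p under 0.05 in limma and a bar at each list's median. The brush border list has its median at 0.44, and the other pathway lists lie between -0.01 and 0.08.

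The step from 3 to 7 days was described from the channel levels and tested over the pools of the reference, of Cy/+ and of Cy/Cy, each pool being a block. Cubn levels at 3 and 7 days were 12.88 and 12.32 in the reference (means of 3 hybridisations), 13.32 and 13.16 in Cy/+, and 13.02 and 12.43 in Cy/Cy. All 3 pools read lower at 7 days, Cy/+ by the least, and the fitted change was -0.44 ± 0.10 (SE, n = 3 pools per age, limma adjusted p = 0.0575), which did not pass. Cltrn levels were 13.64 and 13.85 in the reference, 14.04 and 14.82 in Cy/+ and 14.10 and 14.41 in Cy/Cy. All 3 read higher at 7 days, with a fitted 0.43 ± 0.12 (adjusted p = 0.0799), which did not pass either.

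Of the members 0 passed in this comparison, in which 7.94% of all probes were called, 4.30% higher and 3.63% lower. The 2452 calls over all probes became 92 without the 3-day and 640 without the 7-day Cy/Cy array, 5276 without the 3-day and 4456 without the 7-day Cy/+ array, and 0 with the software's ratios or with scaling. Cubn did pass without the 3-day Cy/+ array (-0.54, adjusted p = 0.00849) and without the 7-day one (-0.61, adjusted p = 0.00753), each leaving 1 Cy/+ pool that has no partner. The other members had fitted changes between -0.07 (Lrp2) and 0.15 (Clcn5). The 3 values per age are not independent repeats, since the reference was read on the mutant arrays too.

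Of the 106 pathway genes 7 were called higher and 5 lower at 7 days, beside the 7.94% of all probes called. These calls rest on few arrays too: 0 were higher and 1 lower without the 3-day Cy/Cy array, 2 and 2 without the 7-day one, 11 and 8 without the 3-day and 13 and 8 without the 7-day Cy/+ array, and all were lost with the software's ratios or with scaling. The endocytic adaptors Epn1 (0.77), Gipc1 (0.58) and Myo6 (0.54), the pump subunit Atp6v1e1 (0.56), the linker Nherf1 (0.58) and the nuclear receptors Rxra (0.40) and Vdr (0.36) were the higher ones. The receptors Lrp1 (-0.60) and Sorl1 (-0.43) were lower, as were the plasma protein genes Rbp4 (-1.58), Tf (-1.23) and Ambp (-0.44).

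The mutants' ratios to the reference were also compared between the ages. From 3 to 7 days the fitted shift was -0.40 ± 0.12 for Lrp2 and 0.32 ± 0.13 for Cltrn, with limma adjusted p-values of 0.399 and 0.501. Limma called 0.0453% of all probes (0.0227% higher and 0.0227% lower) and 0 members, so these shifts did not pass. Among pathway genes Rbp4, which encodes the plasma carrier of retinol that megalin takes up, was called: its ratios were -0.78 in Cy/+ and -0.78 in Cy/Cy at 3 days and 0.43 and 0.32 at 7 days, a shift of 1.15 ± 0.10 (adjusted p = 0.0445). The call was lost with the software's ratios and with scaling, where limma called 0 of all probes in place of 14 (smallest adjusted p = 0.633 and 0.862), while median centring gave 233 calls. The mutant pools were below the reference at 3 days and above it at 7.

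**Figure D4:**
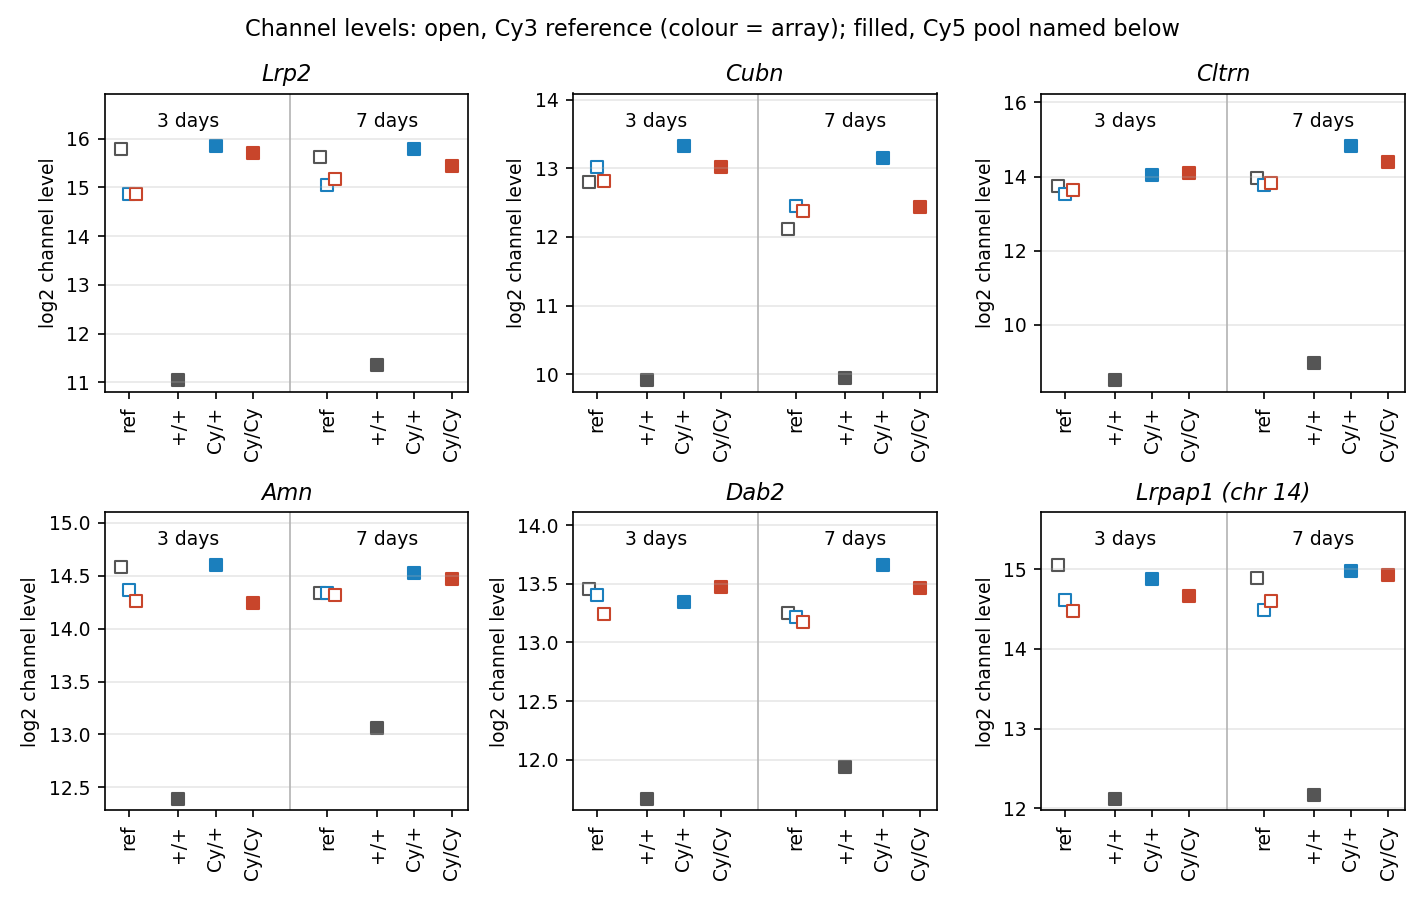
Log2 channel level of 6 members at 3 and 7 days, with open squares for the Cy3 reference on each array (coloured by that array's Cy5 pool) and filled squares for the Cy5 pools. The Cy5 pools labelled +/+ are the lowest points of each panel, and the Lrp2 reference on those arrays lies higher than on the mutant arrays.

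Where +/+ kidney should have met +/+ kidney by the labels, the members were far below the reference. Cltrn had log2 ratios of -5.24 at 3 and -4.98 at 7 days, Lrp2 -4.75 and -4.25, Lrpap1 -2.94 and -2.72, Cubn -2.88 and -2.17, Amn -2.19 and -1.27, Dab2 -1.79 and -1.31, and Clcn5 -1.07 and -0.26. The chromosome 8 probe of Lrpap1 was not well above background in Cy5 of these arrays, and no ratio is given for it there. Cy5 was at least 2-fold below Cy3 for 8 of 8 probes at 3 days (4.47% of all probes) and for 6 of 8 at 7 days (3.75%), and the chromosome 8 probe, counted at 3 days, is no measured level. Of the 7 probes well above background, collectrin and megalin had the lowest ratios and Clcn5 those nearest 0.

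Set against these arrays, as the design has it, 7 of 8 member probes were higher in Cy/+ and in Cy/Cy (29.6% and 28.9% of all probes called either way, 11.0% and 10.6% higher, 18.6% and 18.4% lower). Cltrn stood at 5.88 ± 0.14 and 5.64 ± 0.14 and Lrp2 at 5.37 ± 0.26 and 5.04 ± 0.26 (SE, n = 2 against 2, limma adjusted p between 7.27e-05 and 0.000219). Clcn5, at 0.71 and 0.77, did not pass (adjusted p = 0.108 and 0.0909), though it did without the 7-day array labelled +/+ (1.19 and 1.24, adjusted p = 0.000758 and 0.000589) and stood at 0.23 and 0.29 without the 3-day one (adjusted p = 0.269 and 0.177). The Lrpap1 chromosome 8 call was lost in Cy/+ without its 3-day or 7-day array (adjusted p = 0.0722 and 0.079), and in Cy/Cy it (adjusted p = 0.0729) and Amn (adjusted p = 0.0657) were lost without the 3-day Cy/Cy array. The chromosome 8 probe of Lrpap1 was not well above background in Cy5 of both arrays labelled +/+, and from Cy5 levels alone, which are open to dye bias, it was at least 1.98-fold higher in Cy/+ and at least 2.34-fold in Cy/Cy. Over all probes the 9157 calls in Cy/+ became 3666 without its 3-day and 4168 without its 7-day array, the 8942 in Cy/Cy 3166 and 4037 without its own, and both 0 with scaling. Of all called probes 37.1% and 36.5% were higher, and 56.0% and 55.7% with the software's log ratios. Because liver and other tissue markers move with the same contrast, the tissue of origin and the Cy mutation cannot be told apart here. Of the 106 pathway genes 32 were higher and 18 lower in Cy/+, with 12 of 14 brush border genes among the higher and 12 of 16 ligand genes among the lower.

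The gene most like each receptor was sought as the smallest root mean square difference of centred log2 levels over the 12 channels, which share arrays. For Lrp2 these were Acsm2 (0.33), Aldh1a1 (0.36), Aadat (0.37), Hsd11b2 (0.39) and Slc22a25 (0.40), against a median of 1.58 over all probes. For Cubn they were Enpp6 (0.16), Slc6a20a (0.17), Kl (0.20), Mal (0.20) and Plscr2 (0.22), against 1.07. For Cltrn they were Slc22a25 (0.30), Slc22a24 (0.31), Hao2 (0.32), Slco1a3 (0.32) and Slc7a13 (0.39), against 1.95.

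This ranking follows mostly the drop in the Cy5 pools labelled +/+. Over the 10 other channels Lrp2 was nearest to Pebp1 (0.18) and to Dpp4 (0.19), a peptidase of the same brush border, Cubn to Shank2 (0.09) and Cltrn to Enpep (0.14), and of the genes above Hao2 alone was again among the 5 nearest, for Cltrn. Among the members themselves, Amn and Lrpap1 were nearest over those 10 channels (0.13), and Lrp2 and Cubn were 0.45 apart.

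The promoters of Lrp2, Cubn and Cltrn are shown because these members were called together in Cy/+. Each run is the 250 bases before the RefSeq gene start in GRCr8, read along the gene. The sequences are chr3:74754536-74754785 (Lrp2), chr17:81501695-81501944 (Cubn) and chrX:34027125-34027374 (Cltrn), each on the minus strand, and all 7 genes were matched to a promoter. Capitals mark matches to GGGCGG (a GC box) in Lrp2, and the other 2 hold no match to the motifs given below.
Lrp2: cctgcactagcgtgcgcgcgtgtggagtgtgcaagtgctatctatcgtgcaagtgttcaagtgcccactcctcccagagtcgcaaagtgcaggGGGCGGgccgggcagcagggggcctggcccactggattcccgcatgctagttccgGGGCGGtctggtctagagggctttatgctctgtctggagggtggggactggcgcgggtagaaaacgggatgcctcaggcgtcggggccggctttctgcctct
Cubn: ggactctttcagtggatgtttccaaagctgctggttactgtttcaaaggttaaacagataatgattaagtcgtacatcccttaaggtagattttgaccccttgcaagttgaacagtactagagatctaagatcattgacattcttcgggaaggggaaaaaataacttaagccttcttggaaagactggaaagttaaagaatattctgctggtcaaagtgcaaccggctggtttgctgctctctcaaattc
Cltrn: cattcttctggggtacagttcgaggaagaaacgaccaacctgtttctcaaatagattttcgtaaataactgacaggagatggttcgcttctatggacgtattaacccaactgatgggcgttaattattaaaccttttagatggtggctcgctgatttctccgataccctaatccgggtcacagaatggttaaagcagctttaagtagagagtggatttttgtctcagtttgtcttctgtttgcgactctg
The GC content is 64.4% for Lrp2, 42.0% for Cltrn and 40.0% for Cubn, against a median of 51.2% over 33469 promoters.

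Motifs were searched on both strands of the same 250 bases. GGGCGG is in a promoter of Lrp2, Amn, Clcn5 and Lrpap1, 4 of the 7 genes, and in 30.5% of all promoters. The first count is by gene and the share by promoter. The 7 genes have 8 promoters, and of those of Clcn5 only the one at chrX:17857010-17857259 holds a match. No member's window held CAAAGTCCA (an HNF4 core, 0.338%), the direct repeat of nuclear receptors (AGGTCA, any base, AGGTCA, 0.0508%) or TATAAA (12.9%). A match describes these letters and is not evidence of binding, and the members called in Cy/+ shared none of these motifs.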

How the data were processed

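Pooled kidney RNA of 3 genotypes at 2 ages was measured on 6 arrays with 2 colours. Per the file headers, the arrays were read with Agilent Feature Extraction 9.5.1.1 and probe positions are of build rn3. The design text gives a different array product and software version, and the headers were followed. Spot signals and backgrounds are deposited intensity values without normalization. The deposited log ratio is log10 of Cy5 over Cy3 after the software's background subtraction and dye normalization, per the file headers, and was converted to log2. The software's deposited p-value per spot was read but is not printed. The deposited series matrix held the same log ratios (largest difference 0), and its column medians were 0, apart from -0.0159 on the 3-day array with the +/+ label.

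In R 4.3.3 with limma 3.58.1 and the data.table package (1.17.8), mean signals were corrected with normexp (offset 50) and normalized by loess within arrays, with control and outlier spots at weight 0. Spots of a probe were averaged. A probe was kept if 2 or more arrays had it well above background in Cy3 or Cy5 (30934 of 41012). The ratios, on the log2 scale, went into lmFit and eBayes over all kept probes with values on the arrays of a fit (30896 to 30905), with Benjamini-Hochberg adjustment at 0.05. The 4 mutant arrays were fitted by genotype against 0 (2 residual degrees of freedom). The reference of each age counts as 1 control pool, and variation among +/+ pools or animals is not in the test. Comparisons with the arrays labelled +/+ used all 6 arrays with age as a term, and mutant ratios were compared between ages with genotype as a term. For levels, channels were separated after Aquantile normalization. The 2 arrays of a genotype differ in age, and arrays of 1 age share a label and a slide, so age as a replicate block was run as well. The fits were also run on simulated data with independent errors and without differences of age, slide or tissue. The outcome is not reported here and does not bear on the calls above.

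List genes were matched through RefSeq symbols and synonyms of GRCr8 and read from their brightest kept probe. Of the probes 10735 matched by accession, 5577 by symbol and 3730 by synonym. Genes named from lists are those past the threshold. For the regulators, where none passed in Cy/+, the gene with the largest ratio was named. Brush border genes below the threshold were named after their values were seen. Some results on list genes and motifs are not reported here. Sequences come from the scanner files and from RefSeq (GRCr8). The members and lists were chosen with earlier results of these data known. Alternatives were the software's log ratios, median centring, no background subtraction, offset 10, scaling between arrays, other filters, 1 probe per gene, and leaving out each array.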

Additional observations from a re-analysis of the deposited data

How the results depend on the processing

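Scaling between arrays gives the mutant arrays and those labelled +/+ a common spread. It left 0 member probes called in Cy/+ against its reference and 0 against the arrays labelled +/+ in both genotypes. The software's log ratios left 0 in Cy/+ against its reference, and median centring gave 7 there and 7 in Cy/Cy. With a stricter filter on dim probes 1 member (Cubn) was called between ages over the pools. Leaving out 1 array gave 2 calls each time in Cy/+, 0 in Cy/Cy and in the difference of the genotypes, 0 to 1 between ages over the pools, 6 to 8 for Cy/+ and 5 to 8 for Cy/Cy against the arrays labelled +/+. Over all probes, Cy/+ against its reference had 2427 calls, and 797 without its 3-day array, 1000 without either Cy/Cy array, 0 with the software's ratios or with scaling, and 15405 after median centring. Cy/Cy had 60 calls without either Cy/+ array and 13278 after median centring.

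Age as a replicate block gave 4 member calls in Cy/+ (4864 of all probes), Lrpap1 being the added one, 12 brush border genes in place of 8 and 22 pathway genes in place of 14, and changed no other member's call. In Cy/Cy it called 15 of all probes. Without age as a block, 7 members were still called against the arrays labelled +/+ in each genotype. Pathway genes called higher in Cy/+ numbered 8 without the 3-day Cy/+ array, 10 to 14 without another, 10 with offset 10, 76 after median centring and 0 with the software's ratios or with scaling.

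Signs changed for values that were not called, apart from the chromosome 8 probe of Lrpap1 after scaling (-0.54, Cy/+ against the arrays labelled +/+, and 0.74 to 0.87 without 1 array). Without 1 array, Clcn5 ranged from -0.085 to 0.18 and Dab2 from -0.059 to 0.45 in Cy/+, Amn from -0.021 to 0.15 and the chromosome 8 probe from -0.080 to 0.0024 in Cy/Cy, and Dab2 from -0.18 to 0.32, Clcn5 from -0.072 to 0.19 and Cltrn from -0.50 to 0.017 in the difference of the genotypes. Between ages over the pools the ranges were -0.16 to 0.054 for Lrp2, -0.11 to 0.073 for Amn, -0.080 to 0.091 for Dab2, -0.041 to 0.15 for Lrpap1 and -0.057 to 0.018 for its chromosome 8 probe. There the software's ratios turned Amn (-0.024) and the chromosome 8 probe (0.040), and scaling turned Amn (-0.083), Lrpap1 (-0.056) and the chromosome 8 probe (0.14). In the difference of the genotypes median centring turned Dab2 (-0.050) and scaling turned Clcn5 (-0.44). In the mutants' change of ratio with age, median centring turned the chromosome 8 probe (-0.046), and scaling turned Cubn (-0.81), Amn (-0.63), Lrpap1 (-0.68) and Cltrn (-1.38). The cause of these changes was not tested. Leaving out an array was added to the comparison of pools after the data were seen, as were the counts of list and marker genes by setting and the likeness over 10 channels.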
